A study of Schizosaccharomyces pombe with 88 samples.

Results

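The 10 fission yeast genes described here build the division septum: cdc15, imp2 and myp2 of the contractile ring, mob1 and sid2 of the septation initiation network, rgf3, bgs1, bgs4 and chs2 of septum synthesis, and rho4 of cell separation. They were chosen by name, and each was found through its array symbol or a synonym. All 10 were measured, among 4927 genes tested, and each had 2 probes, which were averaged. The RNA came from cultures of Schizosaccharomyces pombe grown at 30 degrees and synchronised in early G2 by elutriation, which selects cells by size. Cultures of WT and of rad3, cds1 and chk1 mutants were sampled at 0 min and then at 40, 80, 120, 160 and 200 min, either untreated or with 8 mM hydroxyurea (HU), which blocks ribonucleotide reductase and stalls DNA replication. Each of the 44 conditions was hybridised on 2 technical array repeats, 88 arrays in all, against a common reference of untreated asynchronous WT cells in mid-log growth. Rad3 is the sensor kinase of the checkpoints, Cds1 the replication checkpoint kinase that it activates, and Chk1 the DNA damage checkpoint kinase. The labels give the mutants by gene name only, without alleles.

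In fission yeast a ring of actin and myosin assembles at the cell middle in mitosis, and the septation initiation network, a kinase cascade, then triggers its constriction. Glucan synthases lay down the septum behind the ring, and glucanases later dissolve part of it so that the daughters separate. Many of these genes are transcribed in a wave around mitosis and septation, in which the forkhead factors Sep1 and Fkh2 take part.

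Values are log2 ratios to the reference, so a gene's levels can be compared between samples but not with those of another gene. Array medians lay between -0.23 and 0.05, and 5 arrays had a median more than 0.1 from 0. The 6 arrays labelled chk1 at 120 min, in both arms, and at 200 min with HU were left out. The second repeats differed from the WT arrays of the same time and arm with an SD over genes of only 0.00134 to 0.00745. The first repeats had an SD of 0.0795 to 0.144, against at least 0.221 for other arrays of different strains. That left 41 conditions. With HU at 200 min rad3 itself read -2.12 and -3.46 in its own mutant, and -0.38 and -0.68 in WT. Likewise cds1 read -3.10 and -2.88 in its mutant, and 0.69 and 0.56 in WT. No label names separate cultures. Array repeats were averaged before the fits. The p-values therefore rest on the spread between strains grouped together at the same times, which mixes strain differences with technical scatter. Where rad3 and cds1 are grouped, it includes the gap between them. The spread between cultures of 1 strain is not measured.

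Without HU chs2, cdc15, rho4 and myp2 were low at the start, high at 80 min, low at 160 min and higher again at 200 min, while bgs1, bgs4 and imp2 varied less. Averaged over the strains, chs2, which encodes a chitin synthase-like protein, went from -1.14 ± 0.19 (SD, n = 4 strains) at 0 min to 0.66 ± 0.15 at 80 min, -0.72 ± 0.15 at 160 min and 0.34 ± 0.17 at 200 min. The F-BAR protein gene cdc15, which scaffolds the ring, went from -0.90 ± 0.28 to 0.82 ± 0.12, -0.61 ± 0.18 and 0.36 ± 0.21 at the same times. The 2 genes thus rose and fell alike. Rho4, a GTPase that acts in cell separation, reached 0.45 ± 0.24 at 80 min and -1.05 ± 0.42 at 160 min. The myosin II heavy chain gene myp2 reached 0.80 ± 0.21 and then -0.53 ± 0.19. Over the whole course limma's F test, with strain as a covariate, called all 10 genes at an adjusted p under 0.05, against 78.8% of all genes.

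Between 40 and 80 min, 7 of the 10 genes rose, against 4.34% of all genes called higher: chs2, cdc15, rho4, myp2, rgf3, sid2 and mob1. The rise was 1.34 (SE 0.10, limma adjusted p = 6.5e-08) for chs2 and 1.13 (SE 0.14, limma adjusted p = 1.4e-05) for cdc15. It was smaller for the kinase gene sid2, at 0.38 (SE 0.11, limma adjusted p = 0.033), and for mob1, which encodes the Sid2 partner, at 0.37 (SE 0.11, limma adjusted p = 0.049). The F-BAR gene imp2 and the glucan synthase genes bgs1 and bgs4 did not pass, with differences of 0.21, -0.05 and 0.06. The members' median was 0.50 and that of all genes 0.

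From 80 to 120 min cdc15 and chs2 fell, against 6.05% of all genes called lower. From 120 to 160 min 7 genes fell, against 3.09%, led by rho4 at -1.38 (SE 0.20) and rgf3, a Rho1 exchange factor, at -1.05 (SE 0.17). The 7 included bgs4, which fell by 0.53 (SE 0.09, limma adjusted p = 0.00063). From 160 to 200 min 6 genes rose, against 4.16%: rho4 by 1.28, chs2 by 1.06, myp2 by 1.00, cdc15 by 0.98, sid2 by 0.56 and mob1 by 0.53. Bgs1 passed in none of the 4 steps, and its means over the strains lay between -0.17 and 0.19.

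Rgf3 was highest at 120 min rather than 80 min in WT, rad3 and cds1. Its untreated levels at 80 and 120 min were 0.04 and 0.24 in WT, -0.11 and 0.65 in rad3, and -0.16 and -0.09 in cds1. The rad3 strain also had its highest untreated levels of mob1, sid2, myp2 and rho4 at 120 min. For rho4 the rad3 level was 0.87 at 120 min and 0.34 at 80 min, while WT went from 0.79 at 80 min to 0.25. No test was made of these differences in timing.

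**Figure D1:**
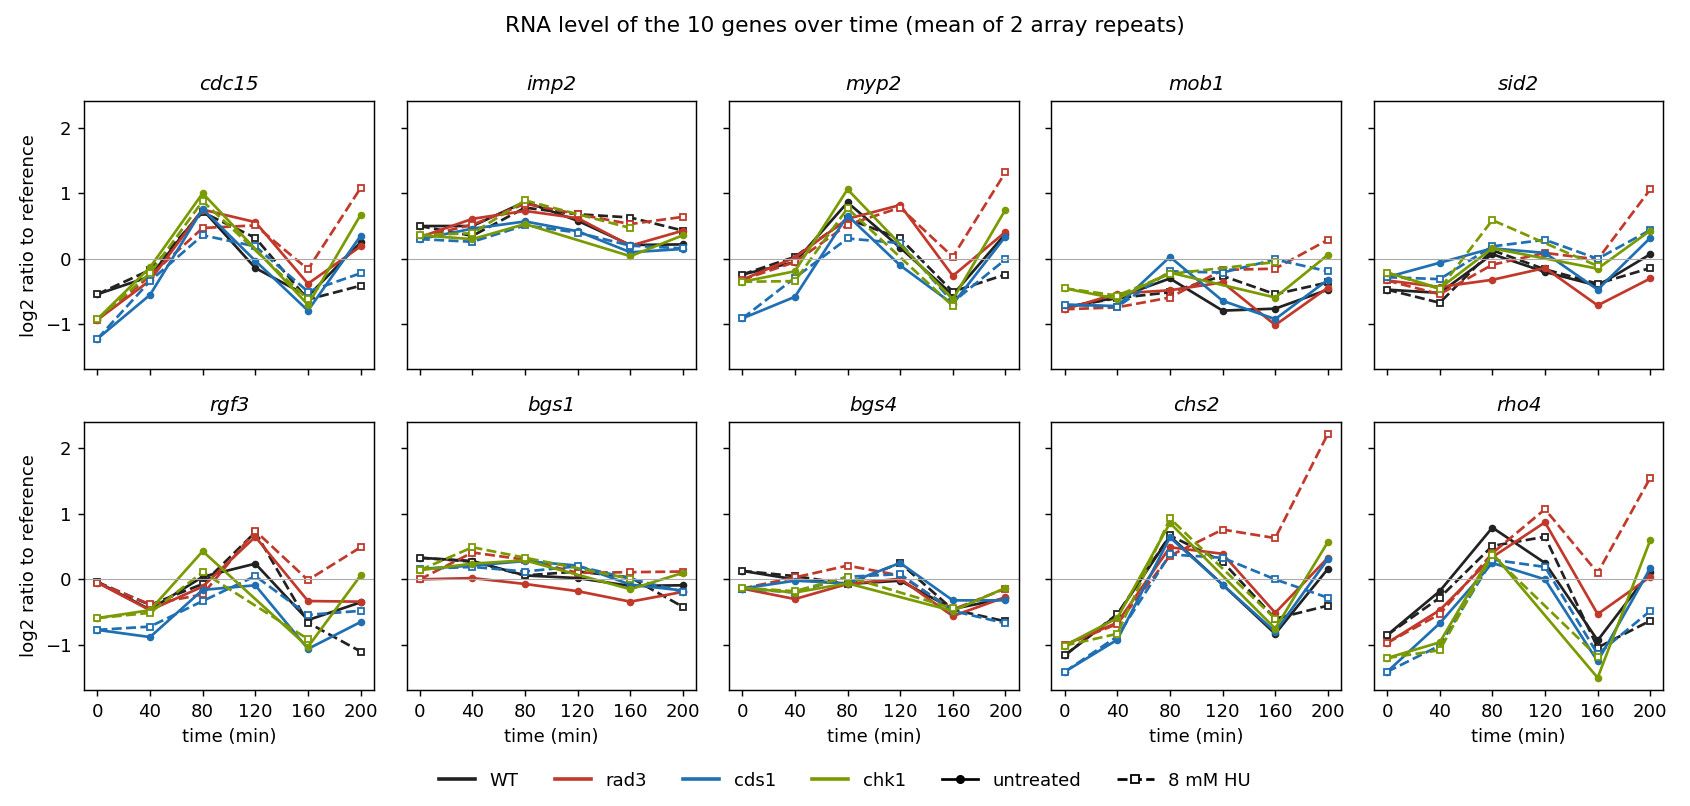
Level of each of the 10 genes (log2 ratio to the reference, vertical axis) against time in minutes, as the mean of 2 array repeats; colours mark strains, solid lines untreated cultures and dashed lines 8 mM HU. Most genes peak at 80 or 120 min and rise again by 200 min, where chs2 in rad3 with HU stands highest at 2.22; lines of chk1 skip the arrays left out.

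Other genes on the role lists changed too. Of all genes 4.34% were called higher between 40 and 80 min. Between 40 and 80 min 8 of the 15 other genes listed under septins, cell separation and their transcription factors rose and none fell. They included adg1, by 2.52, and eng1, the endoglucanase gene that opens the septum, by 2.01. Of 20 other ring genes 2 rose, pxl1 by 1.29 and cdc4 by 0.34, and fim1 fell by 0.44. Of 14 other septation network genes 2 rose, etd1 by 1.14 and plo1 by 0.44. Of 11 other septum synthesis genes none passed. Over the 37 conditions after 0 min the genes most like the mean of the 10 members were pxl1 (Pearson r 0.96), bet1, spo12 and uds1 (each 0.95) and exg1 (0.94). These conditions share strains, times and the reference, so r is a description.

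The members differed in how closely they tracked each other. Over the same 37 conditions cdc15 and myp2 had r = 0.97, myp2 and rho4 0.93, and cdc15 and rho4 0.89, while mob1 and bgs4 had 0.02. The median over the 45 pairs was 0.57. Set against the mean of the other 9, r was 0.93 for cdc15 and myp2, 0.92 for rho4, 0.91 for chs2 and 0.81 for rgf3. It was 0.64 for sid2, 0.63 for imp2, 0.58 for mob1, 0.52 for bgs4 and 0.21 for bgs1.

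At 40 and 80 min no member was called in either pair of strains (WT with chk1, and rad3 with cds1), where limma called 0 of all genes in each. At an unadjusted p under 0.05 it counted 275 and 294 genes in the first pair at these times, and 550 and 199 in the second. At 120 min all 10 genes were higher with HU in WT, by 0.03 to 0.53, but none passed, against 0.325% of all genes called. None passed in the rad3 and cds1 pair either, against 0.609%.

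At 160 min the network genes mob1 and sid2 were higher with HU in the rad3 and cds1 pair. Of the 14 other septation network genes 3 were higher and 3 lower. Mob1 went from -0.92 and -1.10 in untreated rad3 to -0.25 and -0.04 with HU. In cds1 it went from -0.93 and -0.92 to 0.01 and -0.03. The arrays of the 2 arms did not overlap in either strain, but the repeats are technical and lie close together. The mean difference was 0.89 (SE 0.13, n = 2 strains, limma adjusted p = 7.8e-05). Chs2 (0.96), sid2 (0.58) and rgf3 (0.42) passed too, so 4 members were called higher, against 21.2% of all genes. The call of mob1 held in 16 of 16 alternatives, those of sid2 and rgf3 in 13 and that of chs2 in 10. Without replicate 1 the last 3 were lost (chs2 0.75, limma adjusted p = 0.15). In WT and chk1, imp2 (0.42) and mob1 (0.38) were called, against 9.88%. The WT and chk1 call of mob1 held in 8 of 16 alternatives and that of imp2 in 11 of 16. The difference between the 2 pairs passed for no member, by limma, against 5.01% of all genes; 1052 genes had an unadjusted p under 0.05.

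**Figure D2:**
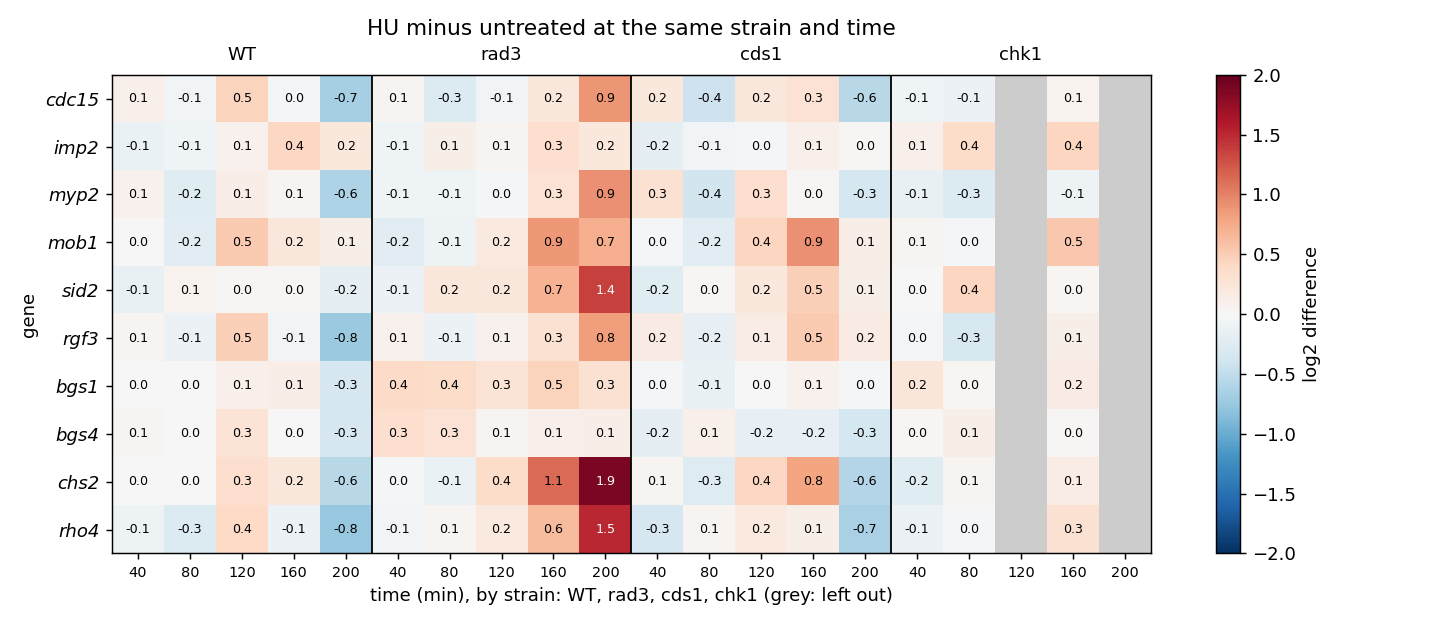
Difference of HU and untreated cultures (log2, colour and printed value) for each of the 10 genes (vertical axis) by strain and time in minutes (horizontal axis); grey cells rest on the arrays left out. The strongest colours are in rad3 at 200 min, where all 10 values are above 0, while 8 of 10 WT values are below 0.

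At 200 min the untreated cultures entered their second wave, and the response to HU differed between strains. With rad3 and cds1 treated as a pair, sid2 (0.74, SE 0.19, limma adjusted p = 0.0071), rgf3 (0.50, SE 0.13, limma adjusted p = 0.006) and mob1 (0.43, SE 0.13, limma adjusted p = 0.017) were higher with HU, against 17.0% of all genes. Without the rad3 strain all 3 calls were lost, at 0.12, 0.17 and 0.13, and mob1 also lost its call without replicate 2 (0.39). WT at this time is 1 difference, with its error taken from the other conditions of the fit. There rgf3 alone passed, at -0.75 (SE 0.18, limma adjusted p = 0.013), against 5.56% called lower. The call was lost without replicate 2 (-0.62) and with the first probe (-0.54). The WT arrays of rgf3 read -0.38 and -0.31 untreated and -1.0 and -1.20 with HU. The WT differences of rho4 (-0.76), cdc15 (-0.66), myp2 (-0.62) and chs2 (-0.56) were below 0 too but did not pass. Of the members 2 were above 0 in WT. The difference between the responses passed for rgf3 only, at 1.25 (SE 0.22, limma adjusted p = 0.0088), against 0.589% of all genes called higher. It was lost without replicate 2, without the rad3 strain and with the first probe (adjusted p up to 0.087). For the level with HU, the pair minus WT, no member passed, although 9 of 10 differences were above 0 with a median of 0.86. The background there was 87 genes called, 1.77%, and 676 genes at an unadjusted p under 0.05.

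For chs2, rho4, cdc15, myp2, bgs1 and bgs4 the means of the pair covered rad3 and cds1 values of opposite sign, while sid2, rgf3, mob1 and imp2 were above 0 in both strains. Some of these values lay near 0, so their sign says little: bgs1 (-0.02) and imp2 (0.02) in cds1, and bgs4 (0.13) in rad3. The planned design gave rad3 against cds1 no test, since each is 1 culture at a given time. The tests of these 2 strains apart, below, were added after their values had been seen. They assume that a lone culture varies like the other conditions of the fit. Their p-values belong to a contrast examined because it looked large. For the response to HU, the spread in these tests came from strains grouped at earlier times. At most of those times few or no genes were called for HU. The SE of the chs2 response was 0.47 for WT in the planned fit, and 0.13 for rad3 in the added fit. Whether late cultures with HU vary as little as the early ones was not tested.

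Chs2 showed the widest gap. In rad3 it read 0.38 and 0.28 untreated and 1.92 and 2.52 with HU. In cds1 it read 0.28 and 0.33 untreated and -0.24 and -0.31 with HU. WT arrays read 0.12 and 0.19 untreated and -0.31 and -0.50 with HU. The rad3 arrays with HU were thus above every other array of the gene at 200 min, and the cds1 and WT arrays with HU were below their untreated arrays. The level with HU was higher in rad3 than in cds1 by 2.49 (SE 0.26, limma adjusted p = 2.5e-05) and higher than in WT by 2.62 (SE 0.26, limma adjusted p = 8e-06). The response to HU was 1.89 (SE 0.13) in rad3 and -0.58 (SE 0.13) in cds1. The rad3 response was 1.01 under quantile normalization and still passed.

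Rho4 and cdc15 had the same pattern. For rho4 the rad3 arrays read -0.04 and 0.12 untreated and 1.71 and 1.40 with HU, and the cds1 arrays 0.15 and 0.20 untreated and -0.47 and -0.48 with HU. For cdc15 the rad3 arrays read 0.21 and 0.18 untreated and 0.82 and 1.34 with HU, and the cds1 arrays 0.32 and 0.37 untreated and -0.21 and -0.22 with HU. In neither gene did the arms overlap in either strain, but technical repeats lie close together. Over the members, the median gap between repeats was 0.16 in rad3 and 0.05 in cds1. The fall with HU was not particular to cds1: WT differences were -0.76 for rho4 and -0.66 for cdc15, against -0.65 and -0.56 in cds1. The SEs were 0.43 and 0.30 for WT in the planned fit, and 0.16 and 0.14 for cds1 in the added fit. Whether these genes pass in WT and in cds1 is therefore not a comparison of the 2 strains. The level with HU was higher in rad3 than in cds1 by 2.03 (SE 0.47, limma adjusted p = 0.048) for rho4 and by 1.30 (SE 0.26, limma adjusted p = 0.014) for cdc15. Both calls of level held in 9 of 14 alternatives. Those that held include the fits that treat technical repeats as samples. Both calls were lost without WT, without chk1 and under quantile normalization. The rho4 call was also lost without replicate 1 and with the first probe. The cdc15 call was also lost without replicate 2 and with the last probe. The lowest alternative difference was 1.54 for rho4 and 1.02 for cdc15.

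The other ring gene with a clear response was myp2, at 0.38 and 0.43 untreated and 1.13 and 1.50 with HU in rad3. In cds1 it read 0.40 and 0.28 untreated and 0.01 and -0.03 with HU. Its level difference between the strains, 1.33 (SE 0.37), did not pass (limma adjusted p = 0.15). Imp2 read 0.65 and 0.63 in rad3 with HU and 0.19 and 0.14 in cds1, but its 2 probes disagreed. They had r = 0.14 over 82 arrays and gave differences of 0.95 and 0.01.

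Of the septation network genes, sid2 read -0.07 and -0.53 untreated and 1.12 and 1.00 with HU in rad3. In cds1 it read 0.35 and 0.30 untreated and 0.45 and 0.43 with HU. Mob1 rose in rad3 from -0.46 and -0.42 to 0.29 at both arrays, and read -0.24 and -0.41 untreated and -0.20 and -0.18 with HU in cds1. In cds1 the HU arrays of both genes were thus slightly above the untreated ones, by means of 0.12 for sid2 and 0.13 for mob1, which did not pass. Rgf3 rose in rad3 from -0.22 and -0.46 to 0.49 at both arrays. The glucan synthase genes had rad3 differences of 0.31 for bgs1 and 0.13 for bgs4, and imp2 had 0.21; none of the 3 passed.

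In rad3 alone, 7 genes were higher with HU at 200 min, against 11.2% of all genes: chs2, rho4 (1.51), sid2 (1.36), myp2 (0.91), cdc15 (0.89), rgf3 (0.83) and mob1 (0.72). The call of myp2 was lost under quantile normalization (0.40, limma adjusted p = 0.17), where cdc15 was 0.57 and still passed. In cds1 alone, rho4 (-0.65), chs2 and cdc15 (-0.56) were lower, against 14.5% of all genes called lower. The cds1 call of chs2 was lost with the first probe and that of cdc15 with the last probe. The response differed between the strains for chs2 by 2.47 (SE 0.19), rho4 by 2.17 (SE 0.22), cdc15 by 1.45 (SE 0.20), myp2 by 1.26 (SE 0.24) and sid2 by 1.25 (SE 0.21), against 1.30% of all genes called higher. For chs2, rho4 and cdc15 this call held in 14 of 14 alternatives, for sid2 in 12 and for myp2 in 11. The latter pair lost it without replicate 2.

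On the level with HU, 3 members were called higher in rad3 than in cds1, against 0.772% of all genes, and the members' median difference was 0.80 against -0.02 for all genes. Both rad3 arrays were above both cds1 arrays for all 10 genes, against 34.3% of all genes. For imp2 this is a mean of 2 probes that disagreed, with differences of 0.95 and 0.01. The rad3 arrays were above both WT arrays for all 10 genes too, against 26.3%. Members could stand above WT in cds1 too, where their differences from WT lay between -0.27 and 0.61. The members' median difference from WT was 0.18 in cds1 and 1.34 in rad3, against 0.02 and -0.03 for all genes. Against WT, 6 members were called higher in rad3, against 1.26% of all genes: chs2, rho4 (2.19), rgf3 (1.58), myp2 (1.55), cdc15 (1.49) and sid2 (1.20). Cds1 against WT gave 0 calls among the members, by limma, against 0.690% of all genes; 586 of all genes had an unadjusted p under 0.05. Without HU at 200 min rad3 and cds1 differed in no member, by limma, with a median of 0, and 81 of all genes had an unadjusted p under 0.05. The widest gap was that of sid2, at -0.63 (SE 0.27, limma adjusted p = 0.99), so part of its response difference of 1.25 lay in the untreated arm. With HU at 160 min none passed either (163 genes at an unadjusted p under 0.05), with a median of 0.33 and chs2 at 0.63. In whole cultures, fewer cells at a stage and less RNA per cell cannot be told apart.

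**Figure D3:**
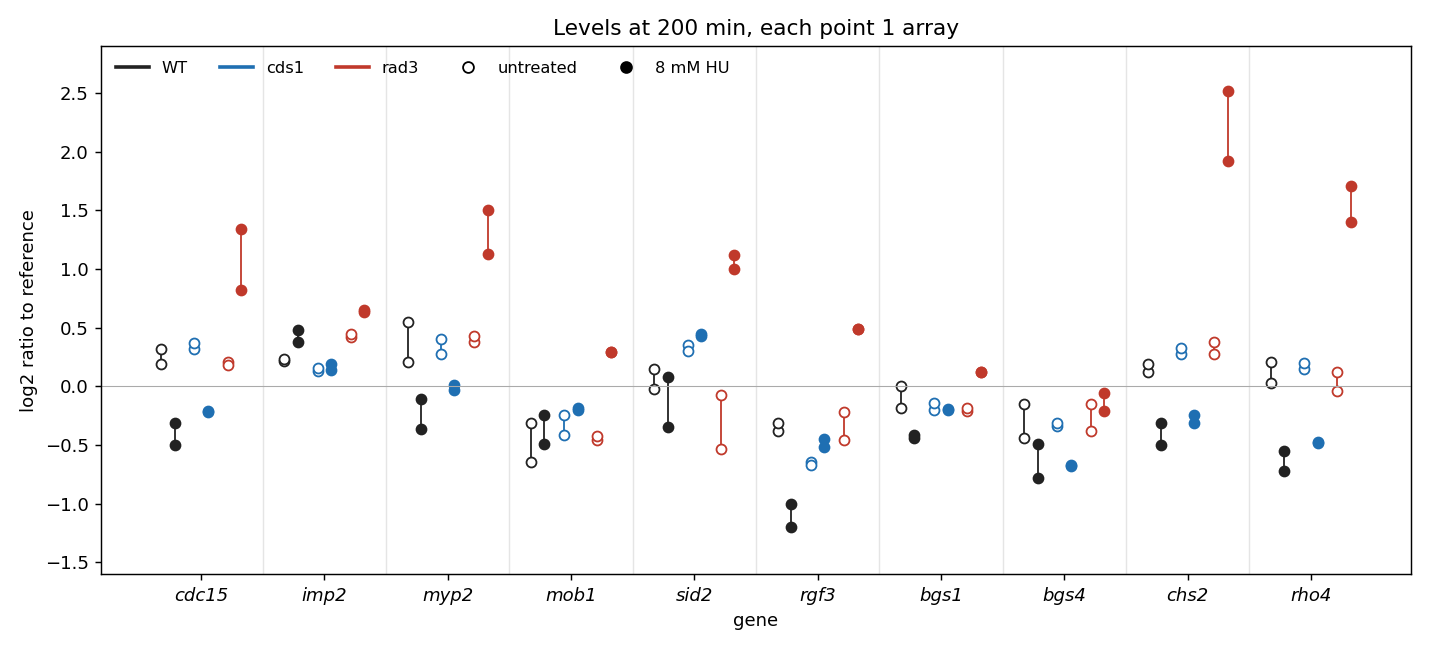
Levels of the 10 genes (horizontal axis) at 200 min as log2 ratios to the reference; each point is 1 array and a line joins the 2 repeats, open for untreated and filled for 8 mM HU. The filled rad3 points lie above the filled WT and cds1 points for every gene, by most for chs2, at 1.92 and 2.52.

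The lists of related genes were read in the same way, first that of septins, cell separation and their transcription factors. The shares of all genes given above apply here. They were 11.2% called higher in rad3, 14.5% called lower in cds1 and 1.30% with a response called higher in rad3 than in cds1. In rad3 at 200 min 8 of the 15 other genes of that list were higher with HU and 2 lower, spn1 (-0.63) and mbx1 (-0.40). In cds1 none was higher and 9 were lower. The response differed between the strains for 8 of 15: eng1 by 4.29, adg2 by 3.60, adg1 by 3.58, adg3 by 2.39, agn1, a glucanase gene, by 1.90, cfh4 by 1.55, fkh2, a forkhead factor gene, by 1.49 and mid2 by 1.33. Among 20 other ring genes pxl1 differed (2.37), among 14 other septation network genes etd1 (1.56), and among 11 other septum synthesis genes none.

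Cycle markers changed with HU at 200 min too. In WT the S phase genes cdc18 and cdc22 rose with HU, while slp1, eng1 and plo1 fell, as did most members. The part of cycle stage in the members' values was not tested. The anaphase gene slp1 was 3.33 higher in rad3 than in cds1 with HU at 200 min. In rad3 the S phase genes cdc18 and cdc22 were also higher with HU, by 1.91 and 2.57, as were the histone genes hta1 (1.34), htb1 (1.19) and hhf1 (1.21). Of the 9 cycle markers 8 were higher in rad3 and none lower. In cds1 hta1 was higher (0.64), and slp1 (-1.80) and eng1 (-2.53) were lower. At 200 min in WT cdc18 went from 0.47 untreated to 2.50 with HU, and cdc22 from -0.60 to 2.29. There slp1 went from 1.15 to -1.51, eng1 from -0.22 to -2.43 and plo1 from 0.78 to 0.12. The median WT difference over the 9 markers was 2.65, but it covers markers that rose and markers that fell. Over the members the median was -0.45.

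**Figure D4:**
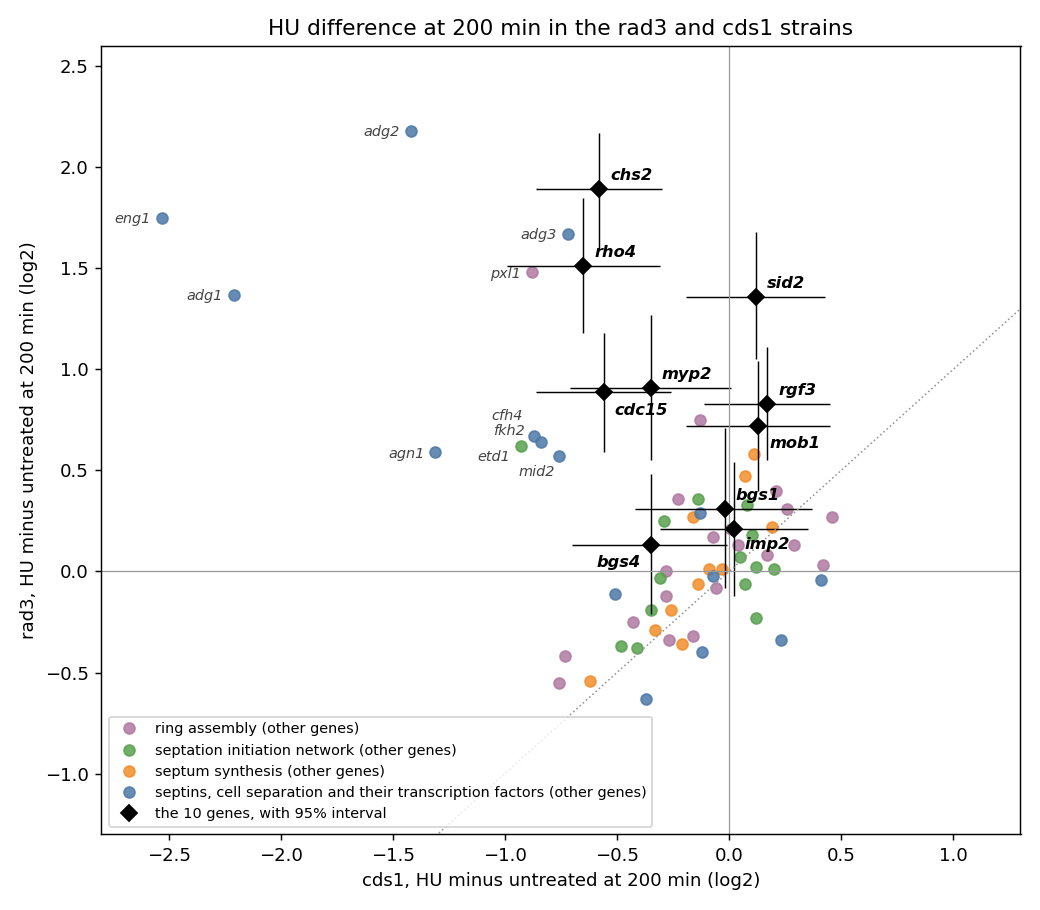
Difference of HU and untreated cultures at 200 min (log2) in rad3 (vertical axis) against cds1 (horizontal axis); diamonds are the 10 genes with 95% intervals, circles the other genes of 4 role lists, and the dotted line marks equal values. Chs2, rho4 and cdc15 lie above 0 in rad3 and below 0 in cds1, with the separation genes eng1, adg1 and adg2 further out.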

How the data were processed

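Total RNA was measured on 2-colour arrays. The deposited values are log2 ratios, per the labels of Cy5 sample cDNA over the Cy3 reference; 99.678% of values were log2 of a ratio with 3 decimals (tolerance 0.01). How background was corrected, and arrays normalized and centred, is not stated in the sources used here; values were used as deposited. Of 9858 probes, 9632 had 1 gene symbol, 44 several and 182 none. Probes with values on under 80% of arrays (35) were left out and probes of a gene averaged, as were the array repeats of a condition. Two-sided tests used limma 3.58.1 under R 4.3.3, at 0.05 after Benjamini-Hochberg adjustment across the whole table. The HU fit had 18 differences of matched strain and time (8 residual degrees of freedom), the level fit 41 conditions (19) and the untreated fit 23 (14).

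The fits of rad3 and cds1 apart (6 and 15 residual degrees of freedom) depart from the planned design, which gave those strains no test against each other; they were added after the values were seen. The members and role lists were chosen with earlier results of these data known. Named genes were all members, the called genes with the largest change of each list, the cycle markers, the label checks and the 5 genes most like the members' mean; beyond these, all called cell separation genes were named after their values were seen. Alternatives covered array repeats, strains, scaling, probes, filters and the variance model. The number of conditions limits the precision, since the array repeats are technical and were averaged. No sequences were analysed here.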

Additional observations from a re-analysis of the deposited data

Results flagged for a closer look

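Among 50 sets of 4 strain values of a member without HU, 5 held a strain far from the other strains, and chance alone gives about 1 in 20. Cdc15 at 80 min was 1.00 in chk1 against 0.75 to 0.76 elsewhere. Myp2 was -0.91 in cds1 at 0 min against -0.35 to -0.24, and 0.75 in chk1 at 200 min against 0.34 to 0.41. Rgf3 was -0.88 in cds1 at 40 min against -0.47 to -0.46. Bgs4 was 0.13 in WT at 0 min against -0.14 to -0.13.

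The response to HU at 200 min differed between rad3 and cds1 by test for chs2 (2.47), rho4 (2.17), cdc15 (1.45), myp2 (1.26) and sid2 (1.25), in the comparison added after the values were seen. It differed between the rad3 and cds1 pair and WT for rgf3 (1.25).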

How the results depend on the processing

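The labels give the repeat number no shared batch. Deviations of same-numbered arrays correlated over 0.1 in 13 of 18 pairs (median r 0.19, range -0.03 to 0.78), in WT at 0.52 to 0.78, so the numbers go together in WT but not in every pair. Counts of all genes called moved over 1.5 times as follows. With arrays as samples and the repeat number as a replicate block (in brackets, without the block), HU in WT at 200 min gave 1351 (1342) genes against 563, WT and chk1 at 160 min 1779 (1770) against 1005, the pair minus WT response 629 (626) against 75 and level 575 (567) against 87. The added comparisons gave 360 (358) against 38 for the rad3 minus cds1 level, 284 (285) against 76 for their response, 1907 (1882) against 1126 for rad3 and 2067 (2057) against 1368 for cds1; this treats technical repeats as samples. Leaving out 1 repeat gave 281 to 436 genes for WT at 200 min, 650 to 659 for WT and chk1 at 160 min, 26 to 37 for the pair minus WT response, 16 to 45 for its level, 24 to 31 for the rad3 minus cds1 level, 635 to 925 for rad3 and 678 to 987 for cds1. Quantile normalization gave 243 for WT at 200 min, 14 and 20 for the pair minus WT response and level, 13 and 130 for the rad3 minus cds1 level and response, and 636 for rad3. The first probe (in brackets, the last) gave 322 (312), 33 (27), 37 (24), 698 (696) and 872 (894) for WT at 200 min, the pair minus WT response and level, rad3 and cds1. Putting the chk1-labelled arrays back gave 2065, 698 and 467 for the first 3 of these. Without rad3 the pair at 200 min gave 1152 against 1769 and the level 36; without cds1 the pair gave 894, and 847 against 1889 at 160 min. Without WT, 492 genes were called at 160 min in WT and chk1 and 21 for the rad3 minus cds1 level; without chk1, 344 and 21, and 38 and 24 for the pair minus WT response and level. A strain term gave 275 for that level, and leaving out 0 min 2361 against 3884 for the time course.

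For single members 1470 alternative values kept direction and side of the threshold, 54 lost and 94 gained a call, and 49 changed sign with no call in either fit. Without the rad3 strain the pair's response at 200 min turned for cdc15 (-0.56), chs2 (-0.58) and rho4 (-0.65), which were then called, and for myp2 (-0.35) and bgs1 (-0.02), which were not, since only cds1 then remains. The cause of the other changes was not tested.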
